A study of Rattus with 12 samples.

Results

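Expression of 9 genes of complement C1q and of the phagocyte lysosome was followed through RNA sequencing of 12 complex cultures of Sprague Dawley rat cells, which held cortical neurons, astrocytes and oligodendrocyte precursor cells (OPCs). The genes were taken by symbol (C1qa, C1qb, C1qc, Fcer1g, Ctss, Laptm5, Lyz2, Gpnmb and Lgals3), and all 9 were found among the 17337 genes of the count table and among the 12271 genes kept for testing. Cultures were left untreated (0 μM) or were exposed for 4 days to fentanyl, a synthetic opioid agonist, at 0.01 μM (low dose) or 10 μM (high dose), with 4 cultures per treatment condition. The untreated cultures carry the letters A, G, M and P, the low dose cultures B, H, N and Q, and the high dose cultures C, I, O and R. The letters form 4 sets of neighbours in the alphabet with 1 culture of each condition (P-Q-R, A-B-C, M-N-O and G-H-I), and the sources used here do not say what the letters stand for or whether the cultures came from separate preparations. All cultures were seeded from purchased primary cells, and microglia were not among the cell types named as seeded.

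C1q is the recognition subunit of the first component of complement. It is assembled from 3 chains, the products of C1qa, C1qb and C1qc, and in the brain it is made mainly by microglia and other macrophages, where it is known for marking synapses and debris for engulfment. Engulfed material is passed to the lysosome, whose proteases, lysozyme and membrane proteins make up much of what a phagocyte expresses. Fcer1g encodes the signalling chain shared by several Fc receptors, Ctss the lysosomal protease cathepsin S, Laptm5 a lysosomal membrane protein of blood-derived cells, and Lyz2 the lysozyme of macrophages. Gpnmb encodes a transmembrane glycoprotein of lysosomes and melanosomes, and Lgals3 encodes galectin-3, a sugar-binding lectin that gathers at damaged lysosomes. Unlike C1q, both of these are made by cells other than phagocytes as well.

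Levels are given as CPM, the count of a gene corrected for the depth of its library. Total counts per culture ran from 12059872 to 24813893, so a count of 3, taken as the lowest that this depth can show, corresponded to 0.124 to 0.249 CPM, which covers counting error only. Lengths of the genes were not used, so levels are compared between cultures for a gene and not between genes.

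Some cultures stood apart from the rest before any comparison of doses was made. In the untreated culture G, the 12 neuron markers summed to 248 CPM, against 2994 to 4349 CPM in the other 11 cultures, and Rbfox3, the neuronal splicing factor NeuN, was at 1.30 CPM against 58.6 to 93.5 CPM. Snap25 and Syt1, genes of synaptic vesicle release, were at 19.3 and 10.1 CPM in G and at least 589.8 CPM and 174.7 CPM elsewhere. Other neuron markers fell less, with Tubb3, Map2 and Gad2 at 78.5, 69.1 and 4.22 CPM in G and at least 224, 234 and 10.2 CPM elsewhere. RNA of the labelled neurons was therefore much reduced in G by these markers, to an extent that differed between them. Results that rest on G are given with and without it. The astrocyte genes Gfap, Aqp4 and Aldh1l1, the OPC genes Pdgfra, Cspg4 and Gpr17 and the oligodendrocyte genes Mbp and Mog were detected in all 12 cultures.

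The 3 genes of C1q lie side by side in the rat genome, in the order C1qb, C1qc and C1qa on chromosome 5 of the RefSeq assembly GRCr8, between Ephb2 and Epha8. In untreated cultures C1qa was at 87.2 CPM in A, 269 CPM in G, 128 CPM in M and 7.48 CPM in P. At the low dose it was at 103 CPM in B, 164 CPM in H, 279 CPM in N and 8.87 CPM in Q, and at the high dose at 124 CPM in C, 189.97 CPM in I, 197 CPM in O and 9.01 CPM in R. Each condition thus held a culture with little C1qa, always that of the set P-Q-R, and the 3 conditions overlapped. C1qb was at 84.5, 355, 187 and 14.5 CPM in the untreated cultures A, G, M and P, at 110.1, 211, 420.5 and 16.5 CPM in B, H, N and Q, and at 142, 282, 276 and 12.7 CPM in C, I, O and R. C1qc was at 107, 301, 182 and 10.4 CPM in A, G, M and P, at 133, 238, 452 and 14.4 CPM in B, H, N and Q, and at 163, 281, 289 and 10.5 CPM in C, I, O and R. The order of the cultures was close to that of C1qa, with N highest for each of the 3 chains and the cultures P, Q and R below all others.

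The 3 chains kept similar proportions although their sum moved over a wide range. The summed level of C1qa, C1qb and C1qc ran from 32.2 CPM in R to 1151 CPM in N. C1qa made up 22.3% to 31.3% of this sum in a culture, C1qb 30.3% to 44.7% and C1qc 32.1% to 39.2%. The share of C1qb was 39.5% to 44.7% in P, Q and R, which includes its highest value.

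The other genes of the phagocyte surface and lysosome varied in much the same way. Fcer1g was at 16.9, 67.2, 23.6 and 0.582 CPM in A, G, M and P, at 22.7, 24.6, 58.3 and 2.41 CPM in B, H, N and Q, and at 24.0, 45.3, 48.9 and 2.85 CPM in C, I, O and R. The lowest of these values, in P, rested on 7 counts. Ctss was at 98.9, 281, 131 and 8.65 CPM in A, G, M and P, at 134, 165, 296 and 11.3 CPM in B, H, N and Q, and at 146, 191, 210.5 and 10.1 CPM in C, I, O and R. Laptm5 was at 28.8, 155, 39.0 and 3.83 CPM in A, G, M and P, at 32.01, 41.0, 89.9 and 3.71 CPM in B, H, N and Q, and at 36.7, 63.0, 67.1 and 4.59 CPM in C, I, O and R. For Laptm5, as for Fcer1g, the highest culture was G and not N. Lyz2 was at 201, 766, 427 and 28.2 CPM in the untreated cultures A, G, M and P, at 241, 448, 748 and 33.1 CPM in the low dose cultures B, H, N and Q, and at 353, 854, 1083 and 43.2 CPM in the high dose cultures C, I, O and R. Within each letter set the high dose culture had the highest Lyz2, while P, Q and R again lay below all other cultures.

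Gpnmb and Lgals3 did not follow C1q, and both were highest in G. Gpnmb was at 337, 4350.04, 856 and 2255 CPM in A, G, M and P, at 411, 787, 879.9 and 2196 CPM in B, H, N and Q, and at 507, 1106, 1226 and 2769.6 CPM in C, I, O and R. Its level in P, Q and R was above that of every culture but G, where it was highest. Lgals3 was at 160.04, 799, 135 and 135 CPM in A, G, M and P, at 188, 144, 152 and 178 CPM in B, H, N and Q, and at 206, 182, 174 and 224 CPM in C, I, O and R. Outside G it stayed between 135 and 224 CPM.

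**Figure D1:**
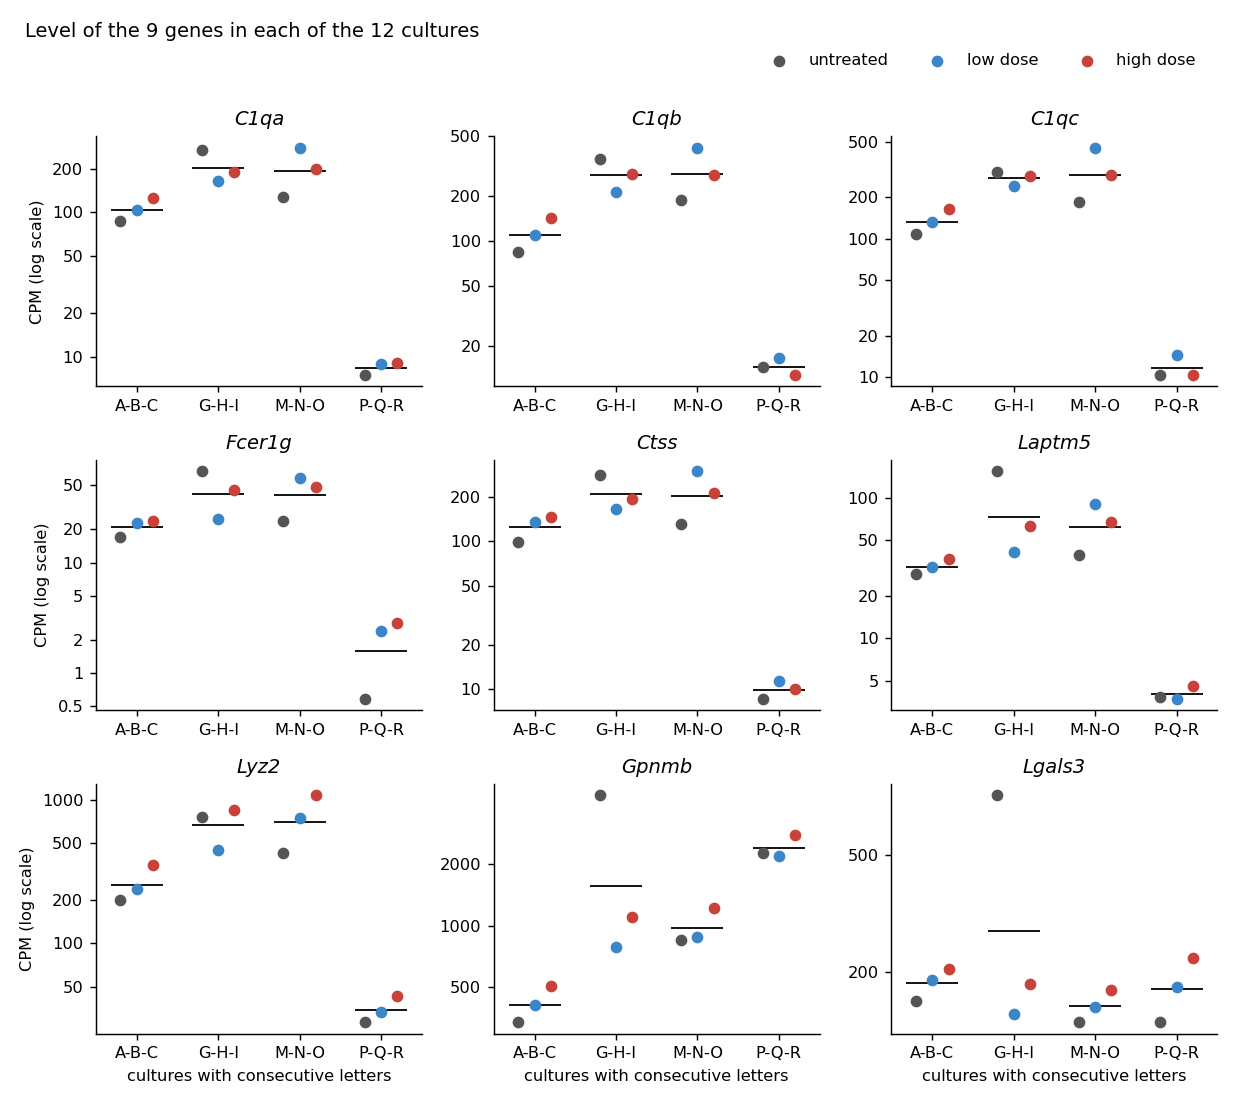
Level of each of the 9 genes in CPM on log axes, for the 12 cultures arranged by consecutive letters, with untreated, low dose and high dose in grey, blue and red and a line at the geometric mean of each letter set. For the first 7 genes all 3 cultures of P-Q-R lie below the other 9, Gpnmb is high in P-Q-R and in the untreated culture of G-H-I (4350.04 CPM), and Lgals3 stands out in that untreated culture alone.

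The letter set separated the cultures far more than the dose did for 8 of the 9 genes, which are all but Lgals3. In 7 of these, all but Gpnmb, the cultures P, Q and R were below the other 9, as was the case for 7.55% of the kept genes (7.16% were above). Between the highest and the lowest letter set, the geometric mean of the 3 cultures differed by 18.3-fold for Laptm5, 19.3-fold for C1qb, 20.5-fold for Lyz2, 20.7-fold for Ctss, 24.1-fold for C1qa, 24.7-fold for C1qc and 26.6-fold for Fcer1g, and P-Q-R was the lowest set for all 7. The lowest of the 9 other cultures was still 4.64-fold (Lyz2) to 9.68-fold (C1qa) above the highest of P, Q and R. G-H-I and M-N-O were close to each other and A-B-C lay between them and P-Q-R, with geometric means for C1qa of 203 CPM in G-H-I, 192 CPM in M-N-O, 104 CPM in A-B-C and as little as 8.43 CPM in P-Q-R. Only 26 of 12271 kept genes, or 0.212%, were more than 10-fold lower in P-Q-R than in the other 9 cultures by geometric means of CPM + 1, and the 7 genes were among these 26. The remaining 19 included Csf1r, Cd68, Aif1, Tyrobp, Itgam, Adgre1, Mpeg1, Siglec1, Cd163 and Cd74, genes of microglia and macrophages, and Lyc2, a lysozyme gene next to Lyz2. The 26 genes were chosen by this difference, so it is given as a description. In RNA of whole cultures, fewer cells of a type and less RNA per cell cannot be told apart.

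Gpnmb ran the other way, with its lowest geometric mean of 413 CPM in A-B-C and its highest of 2394 CPM in P-Q-R, a 5.80-fold difference. For Lgals3 the letter sets differed by 1.80-fold at most. Over the 12 cultures, the share of the sum of squares of log2(CPM + 1) that lay between letter sets was 97.4% for C1qa, 96.4% for C1qb, 97.1% for C1qc, 91.3% for Fcer1g, 96.7% for Ctss, 91.4% for Laptm5 and 94.98% for Lyz2. It was 73.6% for Gpnmb and 23.2% for Lgals3, against a median of 55.7% over the kept genes. The share between doses was 0.198% (Laptm5) to 6.82% (Lgals3), below the median of 8.70% over the kept genes for each of the 9 genes. Without G, the share between letter sets was 94.8% for Gpnmb, and the share between doses was 61.6% for Lgals3, 10.3% for Fcer1g and 8.76% for Lyz2, above the median of 7.96%, while the other 6 genes lay below it. With G left out, the untreated condition has no culture of G-H-I, so the shares between doses and between letter sets overlap. For Lyz2 they were 8.76% and 94.8%, which add to more than the whole. The share between doses can then hold part of the difference between letter sets.

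The likeness of the patterns was measured as the root mean square difference of log2(CPM + 1) between 2 genes over the 12 cultures, after centring each gene on its mean. The 21 pairs among the 7 genes differed by 0.113 to 0.489, while the distance of each of the 7 from its own mean was 1.61 to 1.86. C1qa and Ctss were the closest pair, at 0.113. Gpnmb differed from the 7 genes by 2.16 to 2.51, Lgals3 by 1.497 to 1.87, and the pair of Gpnmb and Lgals3 differed by 0.932. The pattern shared by the 7 genes is mostly the low level of P, Q and R, and the cultures share their libraries and depth across genes, so these values are given without a test.

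Of all kept genes, those nearest to C1qa were Ctss (0.113), C1qc (0.162), Mpeg1 (0.167), Siglec1 (0.201) and Itgam (0.237). Nearest to C1qb were Itgam (0.227), C1qc (0.228), Aif1 (0.234), C1qa (0.260) and Mpeg1 (0.265), and nearest to C1qc were C1qa (0.162), Itgam (0.173), Ctss (0.209), C1qb (0.228) and Siglec1 (0.248). Each chain of C1q thus had at least 1 of the other chains among its 5 nearest genes. Ctss had C1qa (0.113), C1qc (0.209), Mpeg1 (0.216), Siglec1 (0.230) and Itgam (0.265) as its nearest. Fcer1g was nearest to Adgre1 (0.199), Mpeg1 (0.280), Tyrobp (0.289), Cd68 (0.319) and Nckap1l (0.332), and Laptm5 to Tyrobp (0.131), Lcp1 (0.202), Cd53 (0.206), Cd68 (0.206) and Nckap1l (0.215). Tyrobp encodes DAP12, a signalling adaptor of myeloid receptors related in role to the Fcer1g chain. Lyz2 was nearest to Lyc2 (0.0494), then Aif1 (0.287), Itgam (0.311), Cybb (0.318) and Mpeg1 (0.325). Lyc2 is a closely related lysozyme gene beside Lyz2 in the genome, and reads of the 2 genes may be split between them, so the level of Lyz2 is uncertain to that extent. Gpnmb was nearest to Lbh (0.245), Pde1c (0.303), Stk32a (0.320), Col27a1 (0.339) and Serpine2 (0.357), and Lgals3 to Ror1 (0.187), Pdpn (0.192), Pxylp1 (0.218), Slc25a30 (0.233) and Mospd1 (0.236), with no gene in common with the nearest genes of the 7 others. These lists depend on the value added to CPM. With log2(CPM + 0.1), some of the 5 nearest genes changed for each of the 9 genes.

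Marker lists were used to see which other genes shared the low level of P-Q-R. Of 18 microglia markers, 14 were lower in P, Q and R than in all other cultures. The fractalkine receptor Cx3cr1 was at 0 to 0.0832 CPM in P, Q and R, under the 3-count floor, and at 0.584 to 6.13 CPM elsewhere, and the receptor Csf1r, on which microglia depend for survival, was at 4.22 to 5.92 CPM against 42.0 to 184 CPM. P2ry12, a purinergic receptor of resting microglia, was at 0.744 to 0.915 CPM in P-Q-R and at 0.413 to 5.74 CPM elsewhere. Of these 3 defining markers of microglia, Cx3cr1 and Csf1r thus separated P-Q-R from the other cultures and P2ry12 did not. The summed level of the list was 206 to 229 CPM in P-Q-R against 332 to 967 CPM elsewhere.

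Markers of macrophages at the borders of the brain showed the same split, with 7 of 8 kept genes lowest in P-Q-R and a sum of 14.3 to 19.2 CPM there against 73.1 to 454 CPM elsewhere. The mannose receptor Mrc1 was at 3.23 to 4.07 CPM in P-Q-R and at 9.32 to 144 CPM elsewhere, the haemoglobin scavenger receptor Cd163 at 0.998 to 2.82 CPM against 28.3 to 129 CPM, and the hyaluronan receptor Lyve1 at 1.75 to 3.03 CPM against 8.95 to 84.2 CPM. Markers of other leukocytes summed to 8.25 CPM at most, with Mpo and Elane, proteases of neutrophil granules, at 0 to 0.620 and 0 to 0.331 CPM and S100a8 at 0.0688 to 2.03 CPM. Csf3r, the receptor of a granulocyte growth factor and 1 of the 2 kept genes of this list, was lowest in P-Q-R, at 0.0832 to 0.372 CPM against 1.003 to 7.03 CPM elsewhere, and is named here after its values were seen. Of the 6 kept markers of fibroblasts and pericytes none was lowest in P-Q-R, and their sum was highest in N (2897 CPM) and in G (1825 CPM). Col1a1, a chain of collagen I, reached 1265 CPM, and Dcn and Lum, matrix proteoglycans, reached 68.3 and 34.8 CPM in G but stayed at 2.27 and 0.413 CPM or less elsewhere. Of 3 kept endothelial markers Pecam1 was lowest in P-Q-R (0.124 to 0.333 CPM against 0.767 to 4.89 CPM), while Cldn5 stayed at 1.54 CPM or less and Cdh5 reached 28.5 CPM in G. Astrocyte markers summed to 8353 to 11855 CPM in P-Q-R and to 2215 to 8030 CPM elsewhere, and OPC markers to 1238 to 1254 CPM in P-Q-R against 267 to 1287 CPM. The value of 1287 CPM was that of G. Of the 6 OPC markers 4, and of the 9 astrocyte markers 2, were higher in P, Q and R than in all other cultures, as were 7.16% of the kept genes. The part of these markers in the levels of the 9 genes was not tested.

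The other genes of complement and of the lysosome did not share the split to the same extent. Across genes, the median ratio of the other 9 cultures to P-Q-R, by geometric means of CPM + 1, was 13.2 for the 9 genes, 5.20 for the microglia list, 5.84 for the border macrophage list and 0.991 for all kept genes. For the 15 kept genes of the C1 complex and the classical pathway the median ratio was 1.46, and only C2, Itgb2, C3ar1 and C5ar1 were lowest in P-Q-R. The proteases C1r and C1s, which join C1q in the C1 complex, were at 50.1 to 86.3 and 59.96 to 129 CPM in P-Q-R and at 54.4 to 239.6 and 70.2 to 184 CPM elsewhere. Serping1, the inhibitor of both proteases, was at 201 to 502 CPM against 258 to 619.9 CPM. So the recognition chains were scarce in P, Q and R while C1r, C1s and Serping1 overlapped between these and the other cultures.

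Genes of Fc receptor signalling were lower in P-Q-R for 8 of 12, with a median ratio of 3.64. The receptors that signal through the Fcer1g chain or inhibit this signal were among them, with Fcgr1a at 0.499 to 0.620 CPM in P-Q-R against 2.24 to 13.9 CPM, Fcgr2b at 1.25 to 2.27 CPM against 12.3 to 45.3 CPM and Fcgr3a at 0.665 to 0.757 CPM against 5.21 to 22.4 CPM. Of 20 lysosomal proteases and hydrolases, only Ctsc, Ctsk, Ctsz, Cst7 and Grn were lowest in P-Q-R, and the median ratio was 1.16. The general lysosomal proteases stayed high in P, Q and R, with Ctsb at 1087 to 1349.9 CPM, Ctsd at 687 to 803 CPM and Ctsl at 597 to 701 CPM, against 1326 to 3674 CPM, 778 to 5958 CPM and 433 to 1770.0 CPM elsewhere. Of the 12 kept genes of the lysosomal membrane and its biogenesis none was lowest in P-Q-R, and their median ratio was 0.8293. Lamp1 and Lamp2, the main proteins of the lysosomal membrane, were at 1381 to 1415 CPM and 363 to 387 CPM in P-Q-R and at 671 to 1707 CPM and 319.6 to 546 CPM elsewhere, and Laptm4a, a relative of Laptm5, was at 427 to 491 CPM against 313 to 609 CPM. Laptm5 and Laptm4a, and likewise Ctss and Ctsb, thus differed in how far P-Q-R lay from the other cultures.

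Genes of lipid-associated phagocytes, among which Gpnmb and Lgals3 are often counted, had a median ratio of 1.35, with Apoe, Igf1 and Lilrb4 lowest in P-Q-R among 11. Apoe, the main lipid carrier of the brain, was at 1053 to 1199 CPM in P-Q-R and at 1409 to 5112 CPM elsewhere, Spp1 (osteopontin) at 76.6 to 201 CPM against 49.4 to 378 CPM, and Lpl (lipoprotein lipase) at 1.93 to 3.35 CPM against 2.47 to 59.2 CPM. A list of 5 further kept genes held galectin genes and Lgals3bp, which encodes a ligand of galectin-3 and not a galectin. Lgals1 was at 33.3 to 48.7 CPM in P-Q-R and at 10.7 to 214 CPM elsewhere, Lgals9 at 5.09 to 7.07 CPM against 3.37 to 36.1 CPM, and Lgals3bp at 52.4 to 77.2 CPM against 92.2 to 267 CPM. Lgals3bp and Lgals5 were the genes of this list lowest in P-Q-R, with a median ratio over the list of 1.73.

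**Figure D2:**
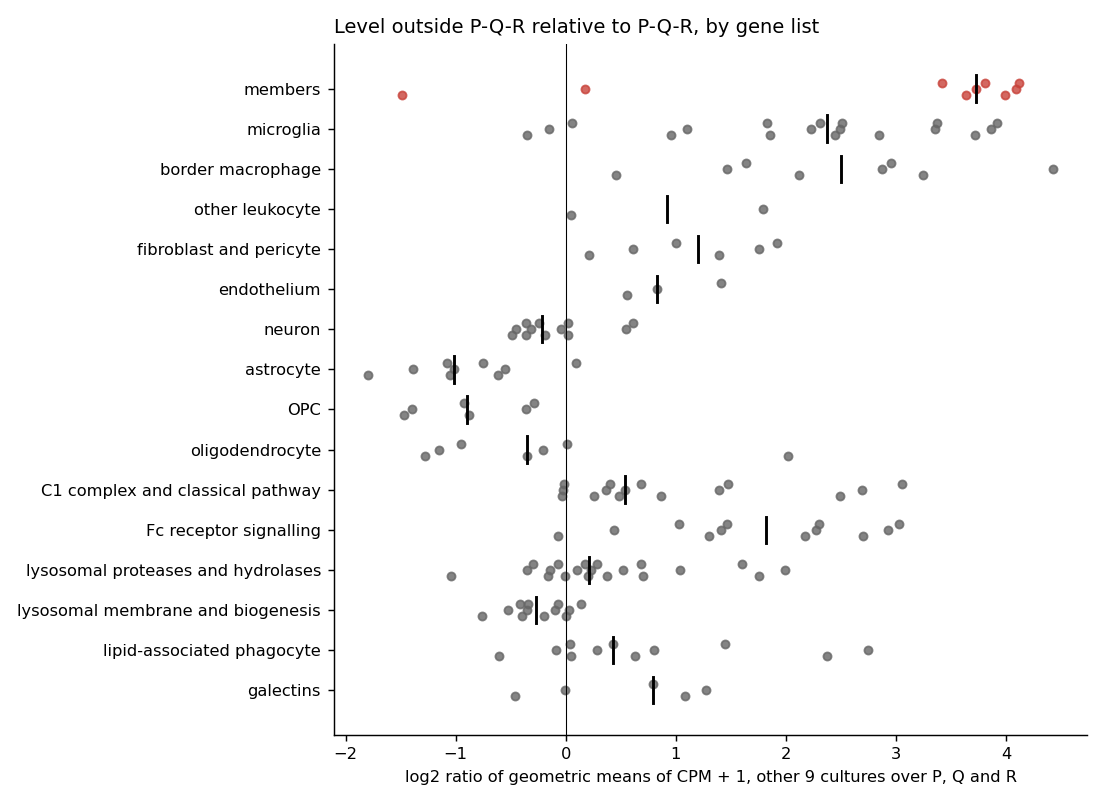
Log2 ratio of the level outside P-Q-R to the level in P-Q-R for each kept gene of the lists, by geometric means of CPM + 1, with a bar at the median of each list. The 9 genes (red) have the highest median, followed by the border macrophage and microglia lists, Gpnmb lies on the other side of 0, and the lysosomal lists lie around 0.

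The comparison of doses asked whether 4 days of fentanyl moved these genes beyond the spread between cultures. In the untreated, low dose and high dose conditions, C1qa was at 123 ± 109, 139 ± 113 and 130.1 ± 87.1 CPM (mean ± SD, n = 4 each), C1qb at 160.3 ± 148, 189.6 ± 173 and 178 ± 128 CPM, and C1qc at 150.2 ± 123, 209 ± 186 and 186 ± 130.3 CPM. Fcer1g was at 27.1 ± 28.4, 27.0 ± 23.2 and 30.3 ± 21.3 CPM, Ctss at 129.7 ± 113, 152 ± 117 and 139 ± 90.4 CPM, and Laptm5 at 56.6 ± 67.1, 41.7 ± 35.9 and 42.8 ± 28.9 CPM. The differences between the means were small beside these SDs. For these genes 91.3% (Fcer1g) to 97.4% (C1qa) of the sum of squares of log2(CPM + 1) lay between letter sets. Each set holds 1 culture of each condition, so the SDs mostly reflect the sets and do not measure the spread of dose differences within them. Lyz2 was at 355 ± 319, 367 ± 305 and 583 ± 472 CPM, Gpnmb at 1949.6 ± 1794, 1068 ± 779 and 1402 ± 964 CPM, and Lgals3 at 307 ± 328, 165 ± 20.9 and 197 ± 22.8 CPM. The SD of Lgals3 in the untreated condition came from G.

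In the quasi-likelihood test of edgeR with 1 factor of unwanted variation, none of the 9 genes combined an adjusted p under 0.05 with an absolute log2 fold change above 0.5 in any of the 3 comparisons, as 0% of the kept genes did. Nor did any of the 9 reach an unadjusted p under 0.05, which 0.742% of the kept genes reached at the low dose and 1.19% at the high dose (each vs. untreated) and 1.17% between the doses. If no gene changed, a share near 0.05 would fall under this threshold, so the fit was conservative. The lack of a small p therefore does not show that the 9 genes were unchanged. The adjusted p was 1.0 for each gene in each comparison. For C1qa, C1qb and C1qc the fitted log2 fold changes at the low dose were 0.78 (SE 0.99), 0.88 (SE 0.93) and 0.97 (SE 1.02), and at the high dose 0.73 (SE 0.99), 0.86 (SE 0.94) and 0.86 (SE 1.02), so the standard errors were as large as the changes. Those of Fcer1g were 0.80 (SE 0.96) and 1.004 (SE 0.96), of Ctss 0.82 (SE 0.97) and 0.73 (SE 0.97), and of Laptm5 0.55 (SE 0.84) and 0.65 (SE 0.84). Lyz2 had the largest value at the high dose, 1.35 (SE 0.96), against 0.68 (SE 0.95) at the low dose. For Gpnmb they were -0.36 (SE 0.78) and 0.02 (SE 0.77), and for Lgals3 -0.05 (SE 0.27) and 0.17 (SE 0.27). Between the doses, the values (high dose vs. low dose) ran from -0.11 (SE 1.01) for C1qc to 0.67 (SE 0.95) for Lyz2, with 0.37 (SE 0.73) for Gpnmb and 0.22 (SE 0.25) for Lgals3.

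The median log2 fold change of the 9 genes was 0.78 at the low dose and 0.73 at the high dose (each vs. untreated) and 0.10 between the doses, against 0.01, 0.00 and -0.01 over all kept genes. They moved with the model, and without the factor they were 0.05, 0.10 and 0.04. Without G they were 0.62, 0.46 and 0.01, and without the set P-Q-R they were 0.62, 0.60 and 0.09. Leaving out the untreated culture P lowered the first 2 medians to 0.24 and 0.35, and leaving out M raised them to 1.06 and 1.03. Over all cultures left out in turn, the median ran from 0.24 (without P) to 1.13 (without Q) at the low dose, from 0.35 (without P) to 1.08 (without R) at the high dose and from -0.28 (without Q) to 0.36 (without N) between the doses. In none of these fits did any of the 9 genes pass both thresholds.

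Within letter sets, the difference in log2(CPM + 1) between cultures of consecutive letters can be read without the spread between the sets. For low dose vs. untreated, no gene of the 9 was higher in all 4 sets (4.06% of the kept genes were), and 7 were higher in the other 3 sets than G-H-I, where 13.9% of the kept genes were. In G-H-I all 9 were lower at the low dose, by 0.34 for C1qc to 2.47 for Gpnmb and Lgals3 on the log2 scale, and the untreated culture of this set is G. For high dose vs. untreated, Lyz2 was the only one of the 9 higher in all 4 sets (5.22% of the kept genes were), by 1.34 in M-N-O, 0.81 in A-B-C, 0.60 in P-Q-R and 0.16 in G-H-I. In the 3 sets without G, 8 of the 9 genes were higher at the high dose (15.1% of the kept genes were), and C1qb was the exception, at -0.17 in P-Q-R. This was not particular to the 9 genes. It also held for 10 of 18 microglia markers, 4 of 8 border macrophage markers and 8 of 12 genes of Fc receptor signalling. Of lysosomal proteases and hydrolases 13 of 20 did so, but only 2 of 12 lysosomal membrane genes and 0 of 9 astrocyte markers.

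For high dose vs. low dose, which does not involve G, Lyz2, Gpnmb and Lgals3 were higher at the high dose in all 4 sets, as were 11.7% of the kept genes. Lyz2 was higher by 0.93 in G-H-I, 0.55 in A-B-C, 0.38 in P-Q-R and 0.53 in M-N-O. In the same order of the sets Gpnmb was higher by 0.49, 0.30, 0.33 and 0.48, and Lgals3 by 0.34, 0.13, 0.33 and 0.19. The 3 chains of C1q were higher at the high dose in A-B-C (0.26 to 0.37) and G-H-I (0.21 to 0.41) and lower in M-N-O, by 0.50 for C1qa, 0.60 for C1qb and 0.64 for C1qc. In P-Q-R the difference was 0.02 for C1qa, -0.35 for C1qb and -0.43 for C1qc. For none of the 9 genes did the 4 values of a condition lie clear of the 4 of another, in any comparison, while this was so for 0.407% of the kept genes at the low dose and 0.685% at the high dose (each vs. untreated) and for 1.19% between the doses.

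**Figure D3:**
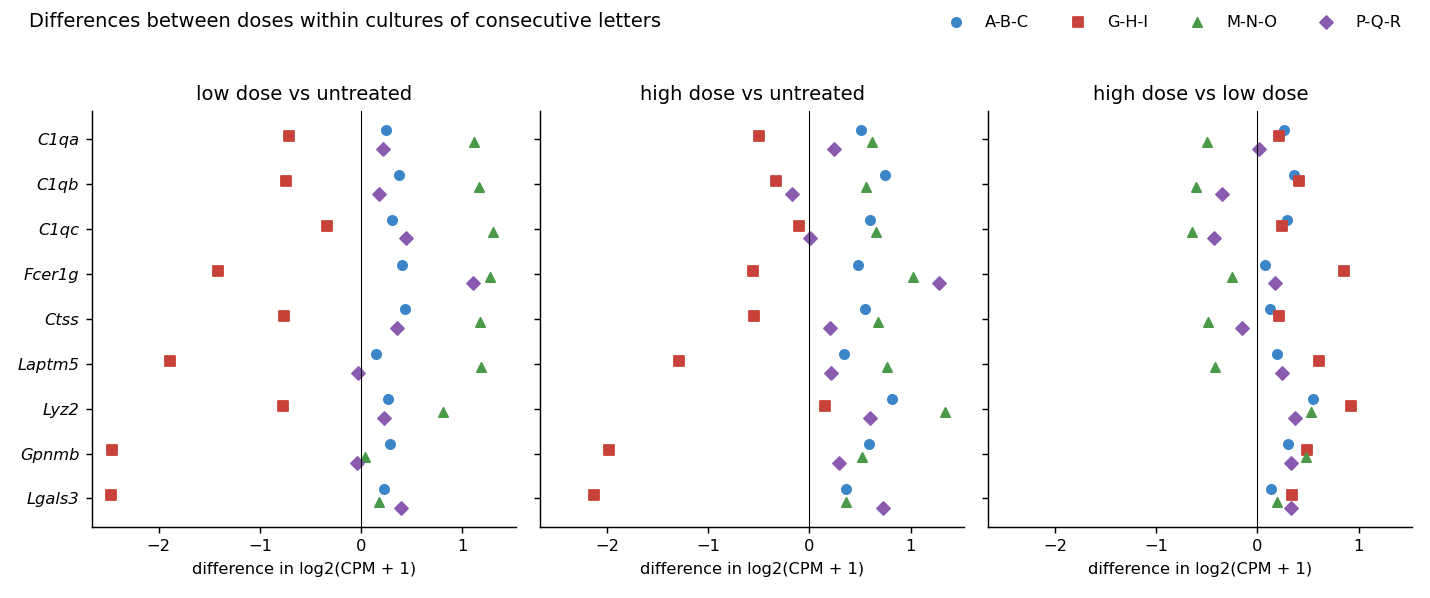
Difference in log2(CPM + 1) between cultures of consecutive letters for each gene, with 1 symbol per letter set and 1 panel per comparison. The red squares of G-H-I lie to the left of 0 in the comparisons with the untreated culture G, except for Lyz2 at the high dose (0.16), and Lyz2, Gpnmb and Lgals3 lie to the right of 0 in all 4 sets for high dose vs. low dose.

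When the letter sets entered the model as a replicate block and G was left out, the standard errors fell and the tests changed for some genes. With this replicate block the log2 fold change of Lyz2 for high dose vs. untreated was 0.99 (SE 0.14, adjusted p = 0.0445 in edgeR), and Lyz2 was the only one of the 9 past both thresholds, as 0.122% of the genes tested were. Over the other alternatives run, its adjusted p in edgeR or DESeq2 was 0.751 to 1.0. An unadjusted p under 0.05 was reached by 9 of the 9 genes in this comparison, against 9.43% of all genes. With G kept in the block, 1 of the 9 reached it, as did 374 of 12271 kept genes. The 7 genes other than Gpnmb and Lgals3 had nearly the same pattern over the cultures. Counts of the 9 genes given here are therefore not counts of separate results. Lgals3 was 0.50 higher (SE 0.08, adjusted p = 0.0589), Gpnmb 0.48 higher (SE 0.08, adjusted p = 0.0843) and Fcer1g 1.06 higher (SE 0.27, adjusted p = 0.232), all short of the threshold. For low dose vs. untreated 7 of the 9 had an unadjusted p under 0.05, against 7.54% of all genes, and 0 of the 9 were called, as were 0% of all genes. For high dose vs. low dose 3 of the 9 had an unadjusted p under 0.05 (13.6% of all genes), and these were Lyz2, Gpnmb and Lgals3, with log2 fold changes of 0.61 (adjusted p = 0.0971), 0.40 (adjusted p = 0.0859) and 0.25 (adjusted p = 0.168), while 0.113% of all genes were called. With G kept in the same block, none of the 9 was called in any comparison, and the log2 fold change of Lyz2 for high dose vs. untreated was 0.70.

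**Figure D4:**
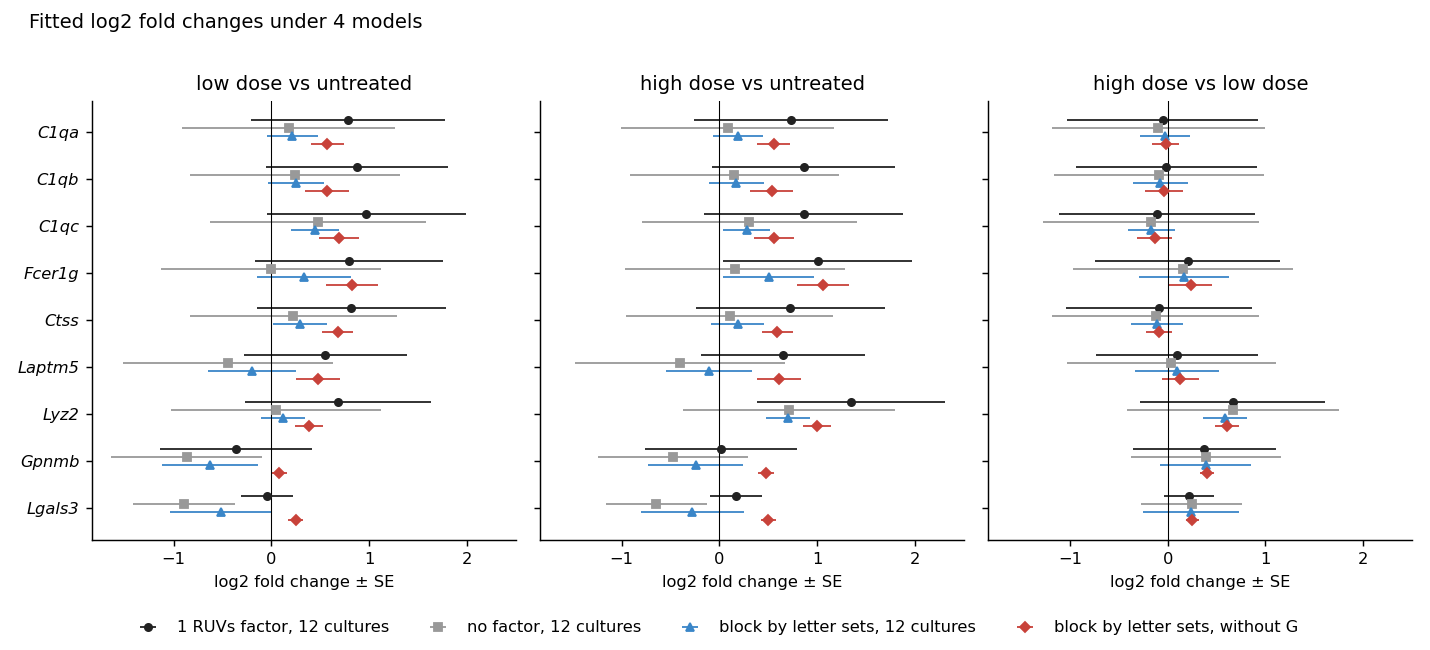
Log2 fold change with its standard error for each gene in the 3 comparisons, under 4 models: 1 factor of unwanted variation, no factor, a block by letter sets, and the same block without the culture G. For the first 7 genes the standard errors are widest without a block, and with the block and without G the red symbols of the comparisons with untreated cultures all lie to the right of 0, from 0.08 to 1.06.

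The level of a gene relative to the summed C1q level of the same culture was also followed. Lyz2 was 0.719, 0.828, 0.858 and 0.871 times the C1q sum in A, G, M and P, 0.695, 0.730, 0.650 and 0.831 times in B, H, N and Q, and 0.823, 1.13, 1.42 and 1.34 times in C, I, O and R. The ratio was 0.819 ± 0.069, 0.726 ± 0.077 and 1.18 ± 0.27 in the untreated, low dose and high dose conditions (mean ± SD, n = 4), and within each of the 4 letter sets it was highest at the high dose, also in P-Q-R, where both levels were low. This ratio was chosen after its values had been seen and is given without a test. The ratio of Ctss was flat, with 0.297 ± 0.042, 0.300 ± 0.059 and 0.296 ± 0.038 across the conditions. For Laptm5 it was 0.117 ± 0.037, 0.083 ± 0.013 and 0.0999 ± 0.0284, and for Fcer1g 0.050 ± 0.024, 0.054 ± 0.011 and 0.067 ± 0.015. Gpnmb was 0.765 to 4.70 times the C1q sum outside P-Q-R and 55.1 to 85.98 times within it, and Lgals3 0.132 to 0.865 and 4.18 to 6.96 times.

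**Figure D5:**
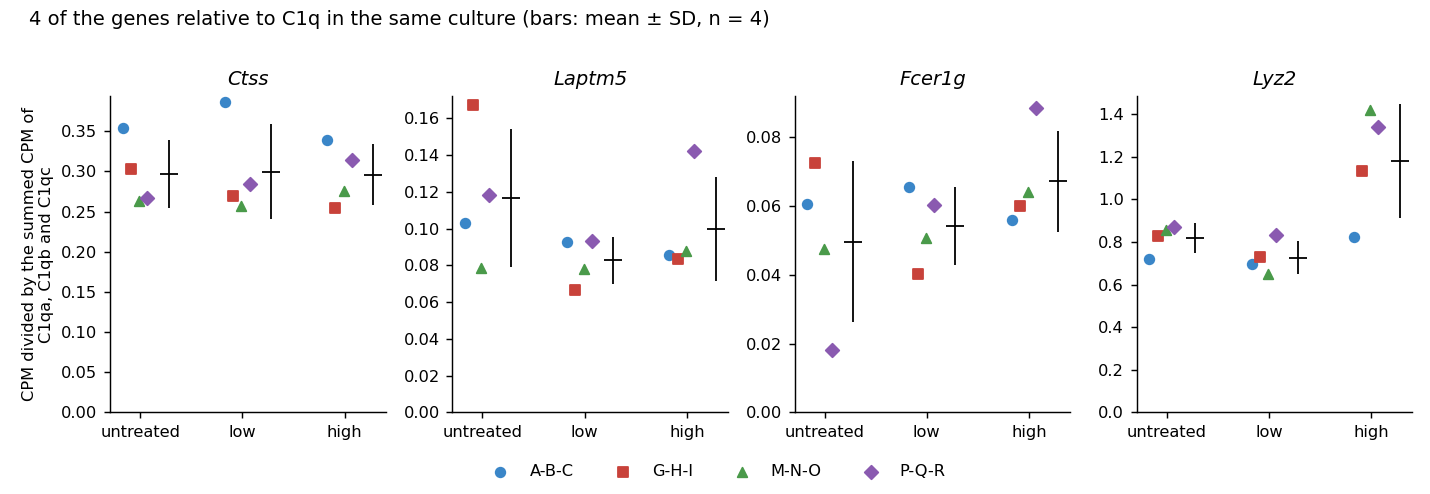
CPM of Ctss, Laptm5, Fcer1g and Lyz2 divided by the summed CPM of C1qa, C1qb and C1qc in the same culture, by condition, with 1 symbol per letter set and the mean ± SD (n = 4) at the right of each group. The ratio of Lyz2 at the high dose (0.823 to 1.42) is above that of the other cultures of the same letter set, and the ratio of Ctss shows no such step.

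The other genes of the pathway were read in the same tests. No gene of any list passed both thresholds in any comparison. Of the 15 kept genes of the C1 complex and classical pathway, 3 had an unadjusted p under 0.05 for high dose vs. untreated, all with positive values, and these were C1s (log2 fold change 0.88, SE 0.21), Serping1 (0.66, SE 0.26) and C3 (2.10, SE 0.38), each with an adjusted p of 1.0. The value of C1r was 0.46 (SE 0.23). C3, the central component of complement on which the classical pathway acts, is named here after its values were seen. The paper lists C3 among the inflammatory genes raised at the high dose, while the fit given here did not call C3. It was at 86.7, 702, 130.1 and 40.7 CPM in A, G, M and P, at 127, 125, 382 and 55.2 CPM in B, H, N and Q, and at 244, 493, 656 and 314 CPM in C, I, O and R. It was higher at the high dose than in the untreated culture of the same set except in G-H-I, and it did not keep to the low level of P-Q-R at the high dose. For high dose vs. low dose, 2 genes of this list, C3 (1.42, SE 0.37) and C1s (0.62, SE 0.20), had an unadjusted p under 0.05, and for low dose vs. untreated 0 did.

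In the remaining lists few genes reached even an unadjusted p under 0.05. Of 12 genes of Fc receptor signalling 0 did in any comparison, with a median log2 fold change of 0.69 at the low dose and 0.71 at the high dose, and Fcgr1a was at 0.85 (SE 0.98) and 0.88 (SE 0.98). Of 18 microglia markers and 8 border macrophage markers 0 did, with medians of 0.79 and 0.99 at the low dose and 0.85 and 1.01 at the high dose. These medians lay near that of the 9 genes. Of 20 lysosomal proteases and hydrolases 1 did, Ctsh at the low dose (0.38, SE 0.16), with list medians of 0.09 and 0.12, and Ctsb, Ctsd and Ctsl had log2 fold changes at the high dose of 0.12 (SE 0.14), -0.07 (SE 0.10) and -0.03 (SE 0.24). Of 12 genes of the lysosomal membrane 0 did, with medians of -0.04 and -0.01. Of 11 genes of lipid-associated phagocytes 1 did, the cholesterol exporter Abca1 for high dose vs. low dose (0.53, SE 0.22), and of the 5 genes of the galectin list 0 did.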

How the data were processed

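Poly(A)-selected RNA libraries of 12 cultures (4 per condition) were sequenced by the authors, aligned with STAR to the rat build rn6 and counted per gene with featureCounts, as given in the submitters' processing notes and the paper. The deposited values are raw counts per gene symbol, without normalization. The library kit does not mark strand.

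The 9 genes, the gene lists and the tests were chosen with earlier results of these data known. Genes were kept by filterByExpr (12271 of 17337, of which 2226 had no count) and scaled by TMM in edgeR 4.0.16 under R 4.3.3 (limma 3.58.1). Adding 1 factor of unwanted variation estimated by the RUVs procedure, the first component of which held 41.0% of the variation within conditions, the quasi-likelihood test was run over all kept genes for 3 comparisons, with Benjamini-Hochberg adjustment. The paper names RUVseq and edgeR without the number of factors. Genes were called at an adjusted p under 0.05 and an absolute log2 fold change above 0.5. At these thresholds the paper reported called genes in each of the 3 comparisons, unlike the fit given here. The source of this difference was not tested. The p-values measure the spread between these cultures, which may be technical. All 9 genes, the 5 kept genes nearest to each, the first 3 genes of each of 15 lists and any list gene past both thresholds were to be named (162 of 166 list genes were in the table), and some of the list genes are not reported here. Alternatives were no factor or 2 factors, DESeq2 1.42.0 or its size factors, other filters, log2(CPM + 0.1), a replicate block by letter sets, and each culture left out. A fit without P-Q-R was added once values had been seen. The scripts were run on simulated counts that held no differences between letter sets and no culture like G. That run therefore does not show how well changes would be found in these data. Gene order was read from RefSeq (GRCr8), which is not the build of the counts, so coordinates and sequences are not given.

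Letter sets were checked for pairing: deviations from the condition means correlated by 0.523 on average between cultures of the same set (-0.192 to 0.888, 12 pairs) and by -0.169 between others. Without G the same-set values were 0.529 to 0.908.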

Additional observations from a re-analysis of the deposited data

Results flagged for a closer look

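Lgals3 in the untreated culture G, at 799 CPM (799.425 CPM), stood apart from the other 3 untreated cultures, which were at 135 to 160.04 CPM. The gap to the nearest of them was 0.962 of the range of the 4 values, above Dixon's 95% critical value for 4 samples. Of 27 groups of 4 cultures tested in this way, 1 was flagged, and chance alone flags about 1 in 20. In the same culture the neuron markers summed to 248 CPM and the fibroblast and pericyte markers to 1825 CPM, and the part of these in the level of Lgals3 was not tested.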

How the results depend on the processing

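The count of genes called in the 3 comparisons was 0 in the reported fit. For low dose vs. untreated it was 0 under every alternative run, DESeq2 included, and it was 0 in all comparisons with each culture left out in turn. The count of genes at an unadjusted p under 0.05 in edgeR did vary for low dose vs. untreated. It was 91 in the reported fit, 117 without a factor and 930 with the replicate block without G. At the high dose (vs. untreated, then vs. low dose) the count of genes called was 1 and 1 with 2 RUVs factors and 3 and 1 in DESeq2. It was 15 and 14 with the replicate block by letter sets without G, in which Lyz2 was called for high dose vs. untreated (0.99). This replicate block without G moved Gpnmb to 0.0787 and Lgals3 to 0.25 for low dose vs. untreated. With G in the replicate block, the log2 fold change of Laptm5 was -0.20 at the low dose and -0.10 at the high dose, and that of Gpnmb was -0.24 and of Lgals3 -0.28 at the high dose. The block changed no other call. Over all 12 cultures not every pair in a letter set correlated (-0.192 at the lowest), so the reported fit did not take the letters as a pairing. Without G all 10 pairs of the same set correlated, by 0.529 to 0.908, and the reported fit makes no use of this. Without a factor, Fcer1g (-0.0039) and Laptm5 (-0.44) at the low dose and Laptm5 (-0.40), Gpnmb (-0.48) and Lgals3 (-0.65) at the high dose vs. untreated changed sign. With at least 10 counts in every culture C1qb was 0.0029 for high dose vs. low dose, and Fcer1g could not be tested. Without P-Q-R, Gpnmb was 0.0572 at the low dose and Lgals3 -0.0541 at the high dose. The cause of these changes was not tested. Leaving out each culture in turn, the values for high dose vs. low dose ran from -0.44 to 0.34 for C1qa, -0.39 to 0.46 for C1qb, -0.50 to 0.36 for C1qc, -0.47 to 0.30 for Ctss, -0.17 to 0.63 for Fcer1g, -0.28 to 0.48 for Laptm5 and -0.30 to 1.09 for Gpnmb. They ran from -0.79 to 1.04 for Gpnmb and -0.038 to 0.45 for Lgals3 for high dose vs. untreated, and from -1.18 to 0.65 and -0.26 to 0.21 for low dose vs. untreated, where Lyz2 stayed between 0.87 and 1.81 (high dose vs. untreated). With log2(CPM + 0.1), of the 5 nearest genes 1 was shared for Lyz2, 2 for C1qb, Fcer1g, Laptm5 and Gpnmb, 3 for C1qa, C1qc and Ctss and 4 for Lgals3. For the 7 genes other than Gpnmb and Lgals3, the values against untreated cultures ran from 0.0179 (Laptm5 without P) to 1.35 (C1qc without M) at the low dose and from 0.11 (Laptm5 without P) to 1.81 (Lyz2 without M) at the high dose. The standard errors of the 7 were near 1 in the reported fit, 0.22 to 0.48 with the replicate block and 0.12 to 0.27 with the block and without G, so the size of change that could be told from 0 depended on the model. In P the counts of Fcer1g were low (7).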
